A study of Mus musculus with 8 samples.

Results

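Rab GTPase genes were defined as the protein-coding genes of the GRCm38 RefSeq table whose symbol is Rab, a number and at most 1 letter and 1 more digit, which leaves out Rab effectors. The rule found 59 genes among the 21887 protein-coding genes that lie on an autosome or a sex chromosome, 55 of them on autosomes and 4 on chromosome X. The series mapped lactylation of histone H4 at lysine 12 (H4K12la), a lactate-derived acyl mark, in mouse brain by CUT&Tag, in which an antibody tethers a transposase that cuts the DNA beside the mark. The 8 libraries form 4 groups of 2: 5XFAD microglia, WT microglia, 5XFAD total cells and WT total cells. 5XFAD mice carry transgenes driven by a neuronal Thy1 promoter and model the amyloid pathology of Alzheimer disease. Total cells are the whole dissociated brain without cerebellum, and microglia were taken from such suspensions with CD11b beads, which can also bind other myeloid cells. The labels give no age or sex and do not say whether libraries came from separate animals, so the spread between libraries may be technical.

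Rab proteins are small GTPases that mark the membranes of the cell. Bound to GTP, and anchored by prenyl groups, they recruit effectors that move, tether and fuse vesicles. Guanine nucleotide exchange factors (GEFs) switch them on, and GTPase-activating proteins (GAPs) switch them off. In microglia they serve phagocytosis and the traffic to lysosomes, and in neurons the release and recycling of synaptic vesicles.

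Each library is represented by 1 list of peaks without read counts, so depth is unknown and a gene without a peak is one where the list has none. The lists held 29947 and 41783 peaks in 5XFAD microglia, 22300 and 33500 in WT microglia, 32967 and 22807 in 5XFAD total cells, and 25271 and 22543 in WT total cells. Longer lists mark more genes, and peaks were wider in microglia, with median widths per list between 580 and 735 bp, against 287 to 366 bp for total cells. Of 13 microglial marker genes, 11 to 13 had a peak in each microglia library and 2 to 6 in each total cell library. Of 10 neuronal markers, 1 or 2 had a peak in each microglia library and 1 to 3 in each total cell library. Gad1, Nefl, Slc17a7, Snap25, Syt1 and Tubb3 had none in any library. Map2 had a peak in all 4 total cell libraries and in no microglia library. Rbfox3 had a peak in 3 microglia libraries, Stmn2 in 1 total cell library, and Thy1 in 2 libraries of each preparation. Of 10 markers of other leukocytes, 1 to 3 had a peak in each microglia library and 0 or 1 in each total cell library. Astrocyte markers had a peak at 2 or 3 of 8 genes in microglia and 1 to 3 in total cells, oligodendrocyte markers at 1 or 2 of 9 against 0 or 1, and vascular markers at 2 to 4 of 7 against 0 to 2.

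Rab genes carried H4K12la peaks at their ends more often than protein-coding genes as a whole in every library. A gene is called marked when a peak overlaps, by at least 1 base, a window reaching 2 kb to each side of one of the gene's annotated ends. In microglia, 41 and 47 of the 59 Rab genes were marked in 5XFAD mice and 37 and 40 in WT mice. In total cells, 42 and 36 were marked in 5XFAD mice and 38 and 33 in WT mice. These counts are 62.7% to 79.7% of Rab genes in the microglia libraries and 55.9% to 71.2% in the total cell libraries. The shares of all genes were 33.3% to 49.0% in microglia and 34.2% to 41.8% in total cells. The ratio of the Rab share to the share of all genes was 1.69 ± 0.14 in microglia and 1.72 ± 0.061 in total cells (SD, n = 4 each). The windows of 28 Rab genes overlap those of another gene. Among the other 31, 62.9% ± 7.7 were marked in microglia and 64.5% ± 4.6 in total cells (SD, n = 4 each). Of all genes whose windows overlap no other, 30.3% ± 4.6 were marked in microglia and 27.8% ± 2.5 in total cells (SD, n = 4 each).

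**Figure D1:**
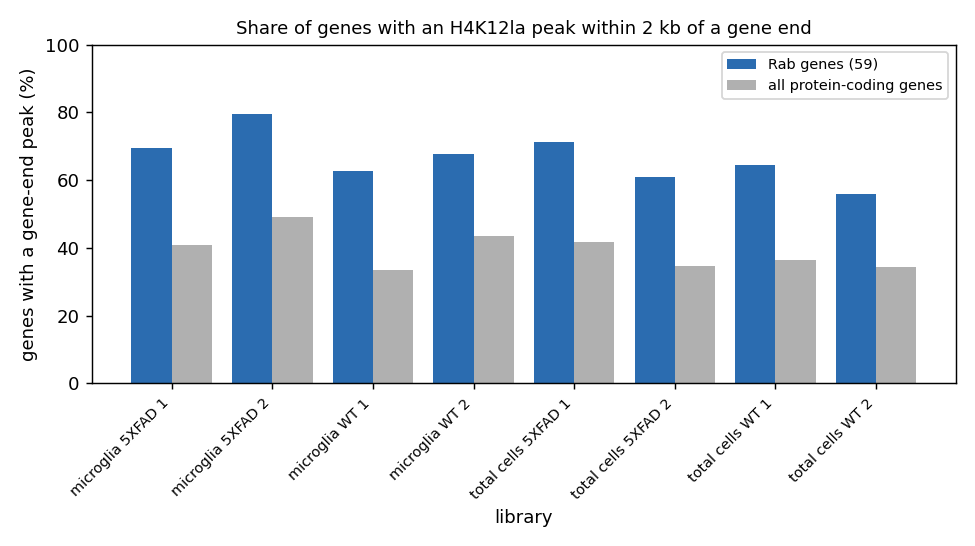
Share of genes with an H4K12la peak within 2 kb of a gene end (vertical axis, percent) in each of the 8 libraries, for the 59 Rab genes (blue) and all 21887 protein-coding genes (grey). The Rab share lies above the share of all genes in each library, from 55.9% to 79.7% against 33.3% to 49.0%.

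Of the 59 Rab genes, 20 (33.9%) were marked in all 8 libraries, against 17.7% of all genes. A further 30 were marked in 1 to 7 libraries, and 9 (15.3%) in none, against 41.1% of all genes in none. The strength of a peak is given as the percentile of its score within its own list. The score is the authors' value per peak and has no stated unit, and percentiles of lists of different lengths do not by themselves show a change.

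Among the Rab genes of the early and recycling endosome, 6 of 15 were marked in all 8 libraries. These were Rab4b, Rab5a, Rab5b, Rab11a, Rab11b and Rab31. Rab5a and Rab5b, which drive fusion of early endosomes, had peaks high in every list. The best peak of Rab5a stood at percentiles 92.3 and 95.5 in 5XFAD microglia, 96.2 and 96.7 in WT microglia, 97.6 and 80.1 in 5XFAD total cells and 92.1 and 96.9 in WT total cells. Rab5b stood at 88.2 and 86.3 in 5XFAD microglia, 88.7 and 84.1 in WT microglia, 89.3 and 83.4 in 5XFAD total cells and 93.0 and 96.2 in WT total cells. The third gene of the family, Rab5c, was marked everywhere except in total cells of WT 2. Rab5a was lowest in total cells of 5XFAD 2, and its WT microglia values lie above its 5XFAD microglia values. For Rab5b both WT total cell values lie above all others. Over the 4 microglia and 4 total cell libraries, the values of each gene overlap. The windows of Rab5a overlap those of Pp2d1, and the windows of Rab5b those of Cdk2, Pmel and Suox, so a peak there cannot be assigned to 1 gene by position alone. The Rab11 genes of the recycling endosome stood lower, at 50.5 ± 17 for Rab11a and 69.1 ± 11 for Rab11b (mean percentile ± SD, n = 8).

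Among 13 Rab genes of the late endosome, lysosome and phagosome, Rab29, Rab32 and Rab39 were marked in all 8 libraries. Rab32, which acts in the making of lysosome-related organelles, had percentiles of 87.4 and 88.2 in 5XFAD microglia, 96.0 and 96.2 in WT microglia, 87.1 and 69.3 in 5XFAD total cells and 85.6 and 88.4 in WT total cells. Rab29, known in human cells as a partner of the Parkinson disease kinase LRRK2, had 62.0 and 87.7 in 5XFAD microglia, 74.6 and 81.0 in WT microglia, 93.9 and 95.6 in 5XFAD total cells and 88.8 and 90.2 in WT total cells. Each total cell value of Rab29 lies above each microglia value, although such ranks come from different lists. Rab7, the main Rab of late endosomes, was marked in 3 of 4 libraries of each preparation. Its gene-end percentiles were 57.4 in 5XFAD microglia 2, 75.6 and 39.9 in WT microglia, 70.6 in 5XFAD total cells 1 and 94.1 and 49.4 in WT total cells. The other 2 libraries had no gene-end peak. Over the gene and 2 kb on both sides, 5XFAD microglia 1 had 6 peaks and 5XFAD total cells 2 had 1.

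Of the 14 Rab genes of traffic through the endoplasmic reticulum (ER) and Golgi, Rab1a, Rab18, Rab30, Rab33b and Rab36 were marked in all 8 libraries. Rab30, a Golgi Rab (chromosome 7, 92741637 to 92844535), had the highest mean percentile of all 59 genes, 98.9 ± 0.71 (SD, n = 8). Its best peak stood at percentiles 97.3 and 99.5 in 5XFAD microglia, 99.0 and 99.7 in WT microglia, 99.0 and 98.8 in 5XFAD total cells and 98.6 and 99.0 in WT total cells. In every library this peak overlapped the window at the lower-coordinate end of the gene. It was 1389 to 1644 bp wide in microglia and 481 to 681 bp wide in total cells. Rab18, an ER and lipid droplet Rab, had a mean percentile of 88.1 ± 7.7 and Rab1a, needed for transport from ER to Golgi, of 84.2 ± 11 (SD, n = 8). Rab36 stood lower at 43.9 ± 26, with values from 5.42 in 5XFAD microglia 1 to 79.8 in total cells of WT 2.

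Genes of exocytosis and regulated secretion were marked at 56.2% of gene and library combinations in microglia and 43.8% in total cells over 12 genes. All genes were marked at 41.7% and 36.8%. The corresponding Rab values were 71.2% and 61.5% for late endosome and lysosome genes, 70% and 66.7% for early endosome genes and 76.8% and 73.2% for ER and Golgi genes. Rab8a, Rab10 and Rab27a were the secretion genes marked in all 8 libraries. Rab27a, which docks secretory granules and exosome-forming bodies, had percentiles of 93.4 and 94.8 in 5XFAD microglia, 61.8 and 81.0 in WT microglia, 85.3 and 93.0 in 5XFAD total cells and 81.6 and 93.2 in WT total cells. The Rab3 genes, which are known for synaptic vesicle and granule release, were seldom marked, apart from Rab3d. Rab3a, the synaptic vesicle Rab, was marked in 3 libraries, Rab3b in 1 and Rab3c in none. Rab3d, found in secretory granules outside neurons, was marked in all 4 microglia libraries and in total cells of WT 1. The remaining 5 genes, among them the ciliary regulator Rab23, included Rab28, Rab40b and Rab40c in all 8 libraries and Rab44 in none. Rab40c, which recruits a ubiquitin ligase, had a mean percentile of 90.1 ± 5.6 (SD, n = 8).

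**Figure D2:**
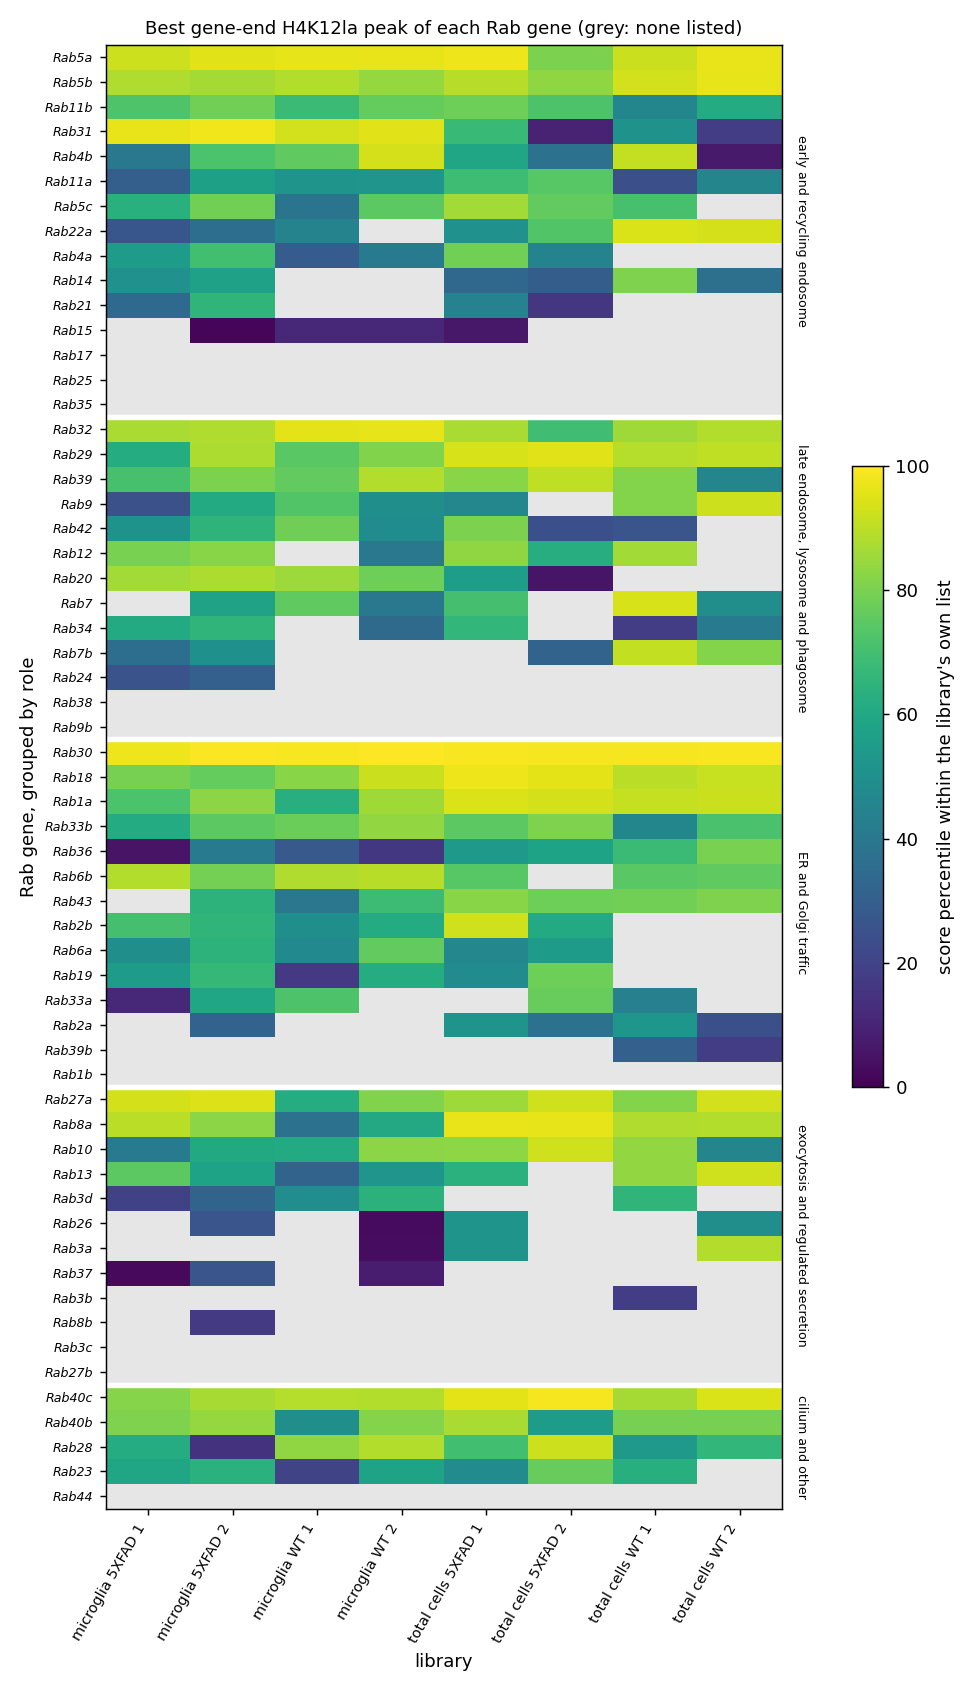
Percentile of the best gene-end peak of each of the 59 Rab genes (rows, grouped by role) in the 8 libraries (columns), with grey where no peak was listed. Rab30 is high in all 8 columns, at 98.9 ± 0.71 (SD, n = 8), 20 rows are filled throughout and 9 are empty throughout.

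Another 8 Rab genes (13.6%, against 7.48% of all genes) were marked in all libraries but 1. Rab6b, Rab9 and Rab13 lacked a gene-end peak in total cells of 5XFAD 2, and Rab5c, Rab23 and Rab42 in total cells of WT 2. Rab22a lacked one in WT microglia 2 and Rab43 in 5XFAD microglia 1.

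The 9 genes marked in no library were Rab1b, Rab3c, Rab9b, Rab17, Rab25, Rab27b, Rab35, Rab38 and Rab44. Rab17 and Rab25 are known from recycling in epithelial cells, and Rab38 from melanosomes. Several have a close relative that was marked throughout. Rab1a and Rab27a were marked in 8 libraries and Rab1b and Rab27b in none, and Rab9 was marked in 7 and Rab9b in none. Rab32 was marked in 8 libraries and Rab38, its relative in melanosome biogenesis, in none. Rab8a was marked in 8 libraries and Rab8b in 1, and Rab39 in 8 and Rab39b in 2. Both Rab11 genes and both Rab40 genes were marked in all 8 libraries. The Rab2 genes were marked in 5 and 6 libraries, the Rab6 genes in 6 and 7.

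Peaks away from the ends changed this picture for some genes. Over the whole gene and 2 kb on both sides, 29 Rab genes had a peak in all 8 libraries (26.7% of all genes did) and 5 in none (34.0% of all genes). The 5 were Rab1b, Rab9b, Rab17, Rab27b and Rab38. Rab8b, with a gene-end peak in 5XFAD microglia 2 only, held 9 and 12 peaks in 5XFAD microglia, 7 and 10 in WT microglia, 6 and 5 in 5XFAD total cells and 3 and 3 in WT total cells. Its best peak inside the gene stood at percentiles 81.9 and 91.5 in 5XFAD microglia, 80.3 and 96.6 in WT microglia, 99.0 and 99.4 in 5XFAD total cells and 99.4 and 98.9 in WT total cells. A gene that was all but unmarked at its ends thus carried one of the strongest peaks of each total cell list within it. Over the gene and its flanks, Rab25 had 1 peak in each microglia library and none in total cells, a pattern of 1.20% of all genes. This peak stood at percentiles 75.9 and 86.0 in 5XFAD and 23.4 and 53.0 in WT microglia. The windows of Rab25 overlap those of Lamtor2 and Mex3a. Rab3c had 1 peak in each total cell library and none in microglia, a pattern of 0.982% of all genes. Its percentiles were 25.1 and 18.3 in 5XFAD and 81.6 and 45.6 in WT total cells.

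The strand of 48 Rab genes was known from their RefSeq promoters. Of these, 42 were marked in at least 1 library, and 38 of them had a peak in the window at the start of the gene in every library that marked them. Rab24 alone was marked only at its far end, and 16 genes were marked at both ends in at least 1 library. In microglia, 70.8% and 66.1% of the gene-end peaks of Rab genes were centred within 1 kb of an annotated start in 5XFAD mice and 79.5% and 75.0% in WT mice. In total cells the shares were 81.2% and 80.6% in 5XFAD mice and 90% and 90.3% in WT mice. Over all genes with a known start the shares were 59.1% to 66.0% in microglia and 67.5% to 72.2% in total cells. Gene-end peaks of Rab genes with a known strand were wider in microglia, with medians of 586.5 and 728 bp in 5XFAD and 589 and 787 bp in WT mice, against 394 and 344 bp in 5XFAD and 359 and 317 bp in WT total cells. Over all genes with a known start these medians ran between 588 and 820 bp in the microglia lists and between 337 and 445 bp in the total cell lists.

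**Figure D3:**
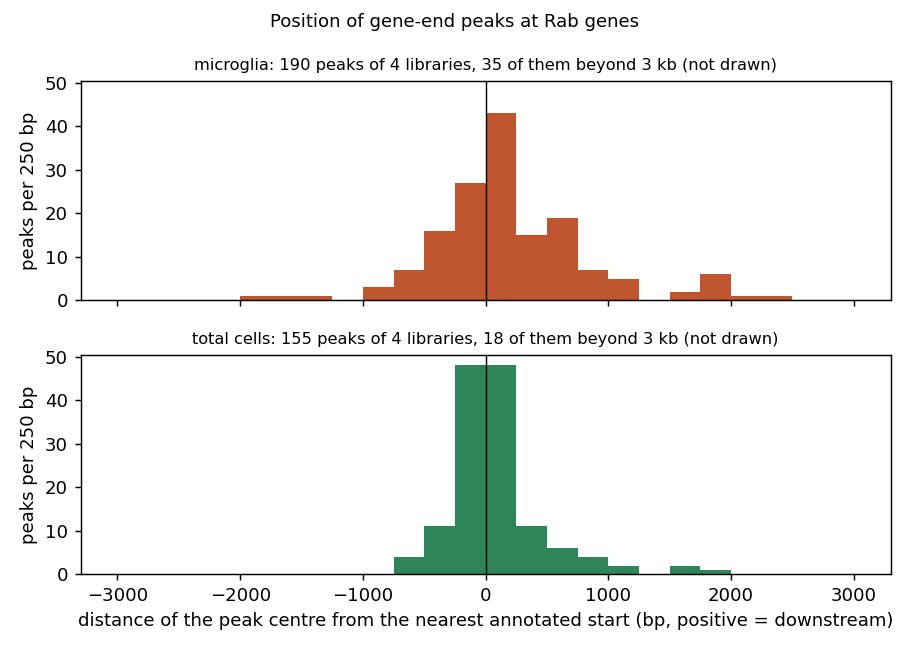
Distance of the centre of each gene-end peak from the nearest annotated start (horizontal axis, bp, positive downstream) for Rab genes of known strand, pooled over the 4 microglia libraries (top) and the 4 total cell libraries (bottom), in bins of 250 bp (vertical axis, peaks). Most peaks lie beside a start, with a median distance of 429 bp over 190 peaks in microglia and 189 bp over 155 peaks in total cells. Peaks beyond 3 kb are not drawn.

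Promoters are shown for genes that stand for these patterns. RefSeq (GRCm38.p6) gives for them 300 bases, from 250 before to 50 after the start. Rab5a (chr17:53478984-53479283, plus strand), Rab32 (chr10:10558158-10558457, minus strand) and Rab1a (chr11:20201162-20201461, plus strand) were marked in all 8 libraries. Rab1b (chr19:5106947-5107246, minus strand) and Rab17 (chr1:90967618-90967917, minus strand) were marked in none. Rab20 (chr8:11478591-11478890, minus strand), Rab21 (chr10:115315542-115315841, minus strand) and Rab31 (chr17:65772703-65773002, minus strand) are described with the comparisons. Capitals mark GGGCGG (the GC box), CCAAT (the CCAAT box), CACGTG (the E-box read by TFEB and MYC) and TGACGTCA (the cAMP response element), on either strand.
Rab5a: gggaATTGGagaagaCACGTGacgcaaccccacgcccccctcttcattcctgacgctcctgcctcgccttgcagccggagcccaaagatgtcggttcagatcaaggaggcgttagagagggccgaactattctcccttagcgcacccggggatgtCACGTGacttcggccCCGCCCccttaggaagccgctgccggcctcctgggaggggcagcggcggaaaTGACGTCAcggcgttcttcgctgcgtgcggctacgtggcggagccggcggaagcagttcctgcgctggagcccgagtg
Rab32: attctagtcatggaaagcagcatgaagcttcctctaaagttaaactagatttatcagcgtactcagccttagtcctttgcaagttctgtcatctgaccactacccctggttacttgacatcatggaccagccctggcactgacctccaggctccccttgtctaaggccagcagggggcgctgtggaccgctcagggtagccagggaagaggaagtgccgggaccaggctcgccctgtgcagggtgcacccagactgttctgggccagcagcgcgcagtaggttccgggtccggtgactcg
Rab1a: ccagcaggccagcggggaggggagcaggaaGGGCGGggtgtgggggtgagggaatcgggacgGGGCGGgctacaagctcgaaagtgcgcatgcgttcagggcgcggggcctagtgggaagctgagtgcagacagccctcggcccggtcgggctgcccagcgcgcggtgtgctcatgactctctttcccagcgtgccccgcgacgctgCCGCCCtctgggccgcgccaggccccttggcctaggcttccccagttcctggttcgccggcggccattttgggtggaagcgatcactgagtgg
Rab1b: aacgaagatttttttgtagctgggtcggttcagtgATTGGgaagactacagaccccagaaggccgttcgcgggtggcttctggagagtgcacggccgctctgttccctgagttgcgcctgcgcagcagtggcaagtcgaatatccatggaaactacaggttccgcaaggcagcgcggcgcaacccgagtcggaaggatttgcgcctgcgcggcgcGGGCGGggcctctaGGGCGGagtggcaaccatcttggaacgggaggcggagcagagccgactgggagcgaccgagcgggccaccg
Rab17: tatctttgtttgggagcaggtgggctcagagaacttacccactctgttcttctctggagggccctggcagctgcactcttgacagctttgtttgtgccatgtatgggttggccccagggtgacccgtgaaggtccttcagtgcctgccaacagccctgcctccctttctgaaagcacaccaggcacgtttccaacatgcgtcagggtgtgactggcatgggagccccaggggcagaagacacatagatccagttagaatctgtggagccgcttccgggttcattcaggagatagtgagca
Rab20: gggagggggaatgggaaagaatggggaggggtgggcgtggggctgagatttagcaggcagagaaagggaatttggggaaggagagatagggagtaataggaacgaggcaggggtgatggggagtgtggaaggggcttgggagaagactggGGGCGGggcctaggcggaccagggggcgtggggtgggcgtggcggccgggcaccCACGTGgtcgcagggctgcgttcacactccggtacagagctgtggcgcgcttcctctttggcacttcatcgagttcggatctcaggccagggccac
Rab21: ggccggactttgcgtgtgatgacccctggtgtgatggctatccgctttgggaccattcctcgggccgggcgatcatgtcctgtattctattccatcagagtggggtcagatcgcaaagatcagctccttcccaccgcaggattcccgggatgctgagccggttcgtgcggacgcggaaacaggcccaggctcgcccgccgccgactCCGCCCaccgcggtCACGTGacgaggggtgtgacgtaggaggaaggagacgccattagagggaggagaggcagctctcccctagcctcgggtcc
Rab31: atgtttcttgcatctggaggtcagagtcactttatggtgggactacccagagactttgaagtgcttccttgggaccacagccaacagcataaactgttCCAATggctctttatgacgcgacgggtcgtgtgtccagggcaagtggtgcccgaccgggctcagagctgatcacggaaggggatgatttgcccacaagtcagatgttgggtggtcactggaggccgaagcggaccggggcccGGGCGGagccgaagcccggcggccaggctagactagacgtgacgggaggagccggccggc

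The promoters of Rab genes had a higher median count of CpG dinucleotides than those of all genes. The RefSeq promoter table held 48 of the 59 Rab genes. The median over the first listed promoter of each gene was 20 CpG for 48 Rab genes and 13 for 17492 genes. It was 19 for the 17 Rab genes marked in 8 libraries, 23 for the 25 marked in 1 to 7 and 14 for the 6 marked in none, with ranges of 10 to 43, 6 to 42 and 5 to 43. The ranges overlap almost fully. Rab1b, with 30 CpG, and Rab1a, with 27, are alike in this measure although one was marked in none and the other in all libraries, and Rab32 was marked in all 8 with 10. Rab17 had 5. Over all listed promoters, GGGCGG or its reverse complement was present in 41 of 60 Rab promoters (68.3%) and 46.2% of all, CCAAT in 43.3% and 38.2%, CACGTG in 10% and 7.84% and TGACGTCA in 3.33% and 2.23%. TATAAA (the TATA box) was present in 6.67% of Rab promoters and 12.6% of all, and GAGGAA (the core read by PU.1) in 18.3% and 27.4%, each on either strand. Of 18 promoters of Rab genes marked in all 8 libraries, 13 held GGGCGG and 13 CCAAT, and of 6 promoters of those marked in none, 4 held GGGCGG and 3 CCAAT. A match is a match of letters only.

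No Rab gene separated the cell preparations completely. A gene was called specific to a preparation when it was marked in all 4 of its libraries and in none of the other 4. This pattern was found in microglia for 0 Rab genes (1.5% of all genes) and in total cells for 0 Rab genes (0.649% of all genes). Among genes marked in 1 to 7 libraries, 3.65% of all genes had the microglia and 1.58% the total cell pattern, against 0 of 30 Rab genes. In the exact two-sided permutation test of marked libraries over 70 assignments, no Rab gene reached the smallest possible p of 0.0286. Rab37, Rab3d and Rab2a had the lowest value, an exact p of 0.143 each. No gene passed Benjamini-Hochberg adjustment over all 21887 genes. With this smallest p, none could pass unless most genes separated completely, so the adjusted result says nothing about single genes. An unadjusted exact p under 0.05 was found for 471 genes, none of them a Rab gene. Only complete separation gives such a value, so this restates the patterns above and is no further evidence. Rab37, a secretory granule Rab, was marked in 3 microglia libraries and no total cell library, and Rab2a, an ER to Golgi Rab, in 1 microglia library and all 4 total cell libraries. Leaving out WT microglia 1 gave 1 microglia-specific gene, Rab37 (2.73% of all genes), and leaving out total cells of WT 1 gave Rab3d (1.82% of all genes). Without 5XFAD microglia 2, Rab2a was specific to total cells (1.0% of all genes).

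Within genotypes, with 2 libraries against 2, the rule is looser, so by construction more of all genes meet it. In 5XFAD mice, Rab3d, Rab24 and Rab37 (5.08% of Rab genes) were marked in both microglia libraries and neither total cell library, against 5.73% of all genes. The opposite was shown by 0 Rab genes (1.88% of all genes). In WT mice, Rab2b, Rab4a, Rab6a, Rab15, Rab19 and Rab20 were marked in both microglia and neither total cell library (10.2%, against 5.52% of all genes). Rab2a, Rab7b, Rab14 and Rab39b showed the opposite pattern in WT mice (6.78%, against 3.44% of all genes). With 2 libraries a group, the smallest two-sided exact permutation p is 0.33, and no other test was run on these patterns.

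Rab31 and Rab20 had peaks of different reach in the preparations. They were singled out after their values were seen. Rab31, which carries cargo from the trans-Golgi network to endosomes, was marked in all 8 libraries, at percentiles 96.9 and 98.0 in 5XFAD microglia, 93.3 and 95.6 in WT microglia, 67.8 and 9.54 in 5XFAD total cells and 51.2 and 18.3 in WT total cells. The 4 microglia values do not overlap the 4 total cell values. Its gene-end peak was centred 1775 to 1828 bp downstream of the annotated start in the 4 microglia libraries, and 1783 and 1727 bp downstream in total cells of 5XFAD 2 and WT 2. In total cells of 5XFAD 1 and WT 1 it lay instead at the start, 145 and 150 bp downstream. Over the gene and its flanks, peaks of Rab31 summed to 9146 and 14068 bp in 5XFAD microglia, 5148 and 13402 bp in WT microglia, 5789 and 3701 bp in 5XFAD total cells and 3583 and 1943 bp in WT total cells. WT microglia 1 lies below total cells of 5XFAD 1, so the preparations overlap in this sum. The best of these peaks stood at percentiles 95.6 to 98.0 in microglia and 69.9 to 93.7 in total cells, closer together than the gene-end peaks.

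Rab20, which acts in the maturation of phagosomes in macrophages, had broad peaks at both ends in every microglia library. Its gene-end peaks summed to 2929 and 4406 bp in 5XFAD microglia, 3327 and 4589 bp in WT microglia, 564 and 329 bp in 5XFAD total cells, and none in WT total cells. Every microglia sum lies above every total cell sum. The total cell peaks of 5XFAD mice lay at or within 2 kb of the start, whereas the microglia libraries also had peaks at the far end. The summed width of a whole list lay between 15.3 and 36.3 Mb for microglia and between 7.80 and 14.8 Mb for total cells, and the part of this general difference in the sums for Rab31 and Rab20 was not tested.

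**Figure D4:**
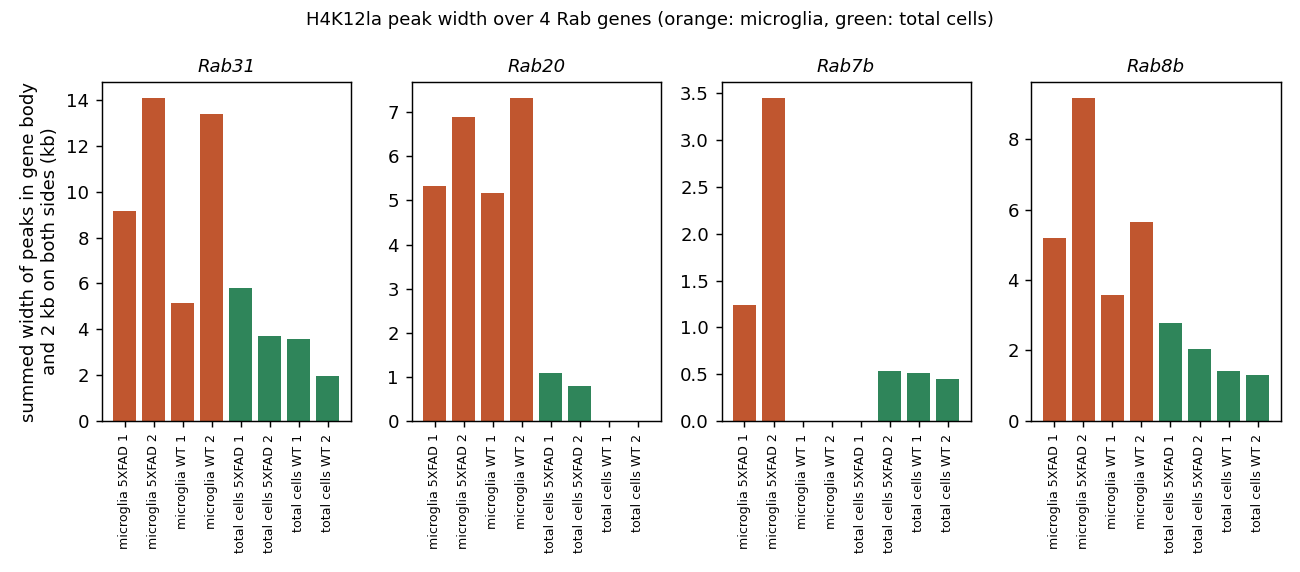
Summed width of H4K12la peaks (vertical axes, kb, a separate scale for each gene) over the gene and 2 kb on both sides for Rab31, Rab20, Rab7b and Rab8b in the 8 libraries, microglia in orange and total cells in green. Rab20 has 5174 to 7314 bp in the microglia libraries, 1085 and 799 bp in 5XFAD total cells and none in WT total cells.

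In microglia, 4 Rab genes (6.78%) were marked in both 5XFAD libraries and neither WT library, against 3.19% of all genes. These were Rab7b, Rab14, Rab21 and Rab24. No Rab gene had the opposite pattern, found at 0.58% of all genes. Among genes marked in some but not all microglia libraries, the 5XFAD pattern held for 4 of 16 Rab genes (25.0%) and 13.9% of all such genes, and the WT pattern for 0 of 16 and 2.52%. Both 5XFAD lists together held more peaks than the WT lists, with 29947 and 41783 against 22300 and 33500. The part of list length in these counts was not tested. With each list limited to its 22300 highest-scoring peaks, Rab7b, Rab14 and Rab21 kept the pattern and Rab24 did not (2.25% of all genes). With windows of 5 kb it held for Rab7b, Rab17 and Rab24 (3.09% of all genes), and over gene bodies for Rab7b and Rab24 (2.81% of all genes), so Rab14 and Rab21 lost it in both. Without WT microglia 2 the count was 7 Rab genes, and 10.1% of all genes had the pattern. Without 5XFAD microglia 2, 3 Rab genes (Rab7, Rab15 and Rab43) had the WT pattern (2.61% of all genes), and without WT microglia 1, 1 (Rab3a; 2.32% of all genes). The 5XFAD pattern was also found at the neuronal marker Thy1 and the leukocyte marker Ms4a1, and at none of 13 microglial markers.

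The peaks behind this pattern were of low or middle rank. Rab14, which links Golgi and endosomes, had percentiles of 50.6 and 57.1 in 5XFAD microglia, against no gene-end peak in WT microglia, and was marked in all 4 total cell libraries. Over the gene and its flanks, 5XFAD microglia had 4 and 5 peaks, the best at percentiles 88.3 and 92.5, against 2 and 3 in WT microglia, the best at 78.4 and 92.8. Its windows overlap those of Cntrl. Rab21, an early endosome Rab that carries integrins (chromosome 10, 115289862 to 115317419), had percentiles of 34.3 and 65.6 in 5XFAD microglia, against no gene-end peak in WT microglia. It was the 1 Rab gene with the 5XFAD pattern in both preparations, a combination found at 0.174% of all genes. The RefSeq start used for the promoter printed above lies inside the recorded gene, not at its outer end. A peak overlapped this promoter in all 4 5XFAD libraries, centred at -240.5 and -290 bp from that start in 5XFAD microglia and at -181 and -104 bp in 5XFAD total cells, where minus is upstream. WT microglia had 1 peak elsewhere in the Rab21 gene in each library, and WT total cells had 0 and 1. With windows of 1 kb Rab21 lost the pattern in total cells. Rab24, which takes part in autophagy, had 25.8 and 30.6 in 5XFAD microglia at its far end, against no peak in WT microglia or in total cells, and shares window space with Mxd3, Nsd1 and Prelid1. Rab7b, a late endosome Rab, had 36.3 and 50.2 in 5XFAD microglia, against no peak in WT microglia. In total cells it had 31.9 in 5XFAD 2 and no peak in 5XFAD 1, against 90.7 and 81.3 in WT mice.

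In total cells, 6 Rab genes (10.2%) were marked in both 5XFAD libraries and neither WT library, against 3.11% of all genes. These were Rab2b, Rab4a, Rab6a, Rab19, Rab20 and Rab21. Rab39b alone (1.69%) had the opposite pattern, found at 1.64% of all genes. Among genes marked in some but not all total cell libraries, the 5XFAD pattern held for 6 of 23 Rab genes (26.1%) and 11% of all such genes, and the WT pattern for 1 of 23 (4.35%) and 5.78%. With each list limited to its 22300 highest-scoring peaks, the same 6 genes kept the pattern (2.59% of all genes). With windows of 5 kb Rab4a alone had it (3.35% of all genes), and with the higher-scoring 50% of peaks Rab2b and Rab11a (2.77% of all genes). Without total cells of WT 1 the count was 10 Rab genes (6.32% of all genes). The WT count was 6 Rab genes without total cells of 5XFAD 1 (4.75% of all genes), 2 without 5XFAD 2 (2.44%) and 3 without WT 2 (4.10%).

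Of the 6 genes, 5 were also marked in all 4 microglia libraries, the exception being Rab21. Over all genes with this pattern in total cells, 339 of 680 (49.9%) were marked in all 4 microglia libraries. Rab2b, a Golgi Rab, had percentiles of 92.8 and 61.3 in 5XFAD total cells, against no peak in WT total cells, and 49.9 to 70.6 in microglia. Rab4a, which returns cargo quickly from early endosomes, had 78.7 and 44.6 in 5XFAD total cells, against no gene-end peak in WT total cells, and 29.2 to 69.8 in microglia. Inside the gene, WT total cells had 1 and 2 peaks, the best at percentiles 22.6 and 21.2. Its relative Rab4b was marked in all 8 libraries. Rab6a, which returns cargo to and through the Golgi, had 46.4 and 55.4 in 5XFAD total cells, against no peak in WT total cells, and 47.9 to 76.0 in microglia. Rab19 had 48.2 and 78.1 in 5XFAD total cells, against no peak in WT total cells, and 16.7 to 66.4 in microglia. Rab20 had 55.7 and 5.64 in 5XFAD total cells, against no peak in WT total cells, and 77.8 to 87.7 in microglia. Over the gene and 2 kb on both sides, WT total cells had no peak at Rab2b, Rab6a, Rab19 or Rab20. With windows of 5 kb, Rab2b, Rab6a and Rab20 were marked in all 8 libraries (22.5% of all genes were). WT total cells thus had peaks near these 3 genes, beyond the 2 kb windows. The windows of Rab2b, Rab6a and Rab19 overlap those of other genes, and those of Rab4a, Rab20 and Rab21 do not. The same pattern was found at 1 of 13 microglial markers (P2ry12), 1 of 10 neuronal (Thy1), 1 of 8 astrocyte (Slc1a3) and 1 of 7 vascular markers (Pecam1). Thy1, whose promoter drives the transgenes, was marked in the 4 5XFAD libraries and in no WT library, at a mean percentile of 96.8 ± 3.6 (SD, n = 4), and the part of the transgenes in that peak was not tested. In total cells a change in the number of microglia and a change in the mark within cells cannot be told apart.

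Rab39b, whose human counterpart is linked to X-linked intellectual disability, had no peak in 5XFAD total cells, against percentiles of 30.5 and 18.3 in WT total cells, and none in microglia. Both peaks were small, 216 and 183 bp wide.

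Genes that control or serve Rab proteins were also often marked. All 117 genes listed as escort and prenylation proteins, GEFs, GAPs and effectors were found in the table. Of them, 38 (32.5%) were marked in all 8 libraries, against 17.7% of all genes, and 11 (9.40%) in none, against 41.1%. Among 7 escort and prenylation genes, 4 were marked in all 8 libraries, among them both subunits of the enzyme that attaches the prenyl groups. The mean percentile was 79.1 ± 17 for Rabggta and 85.9 ± 8.2 for Rabggtb (SD, n = 8). Chm, the escort protein lost in human choroideremia, was marked in all 4 microglia and no total cell library, and its relative Chml in none.

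Of 33 GEF genes, 13 were marked in all 8 libraries, led by Hps1, a GEF subunit for Rab32 and Rab38, at 96.4 ± 3.0 (SD, n = 8). Madd, a GEF for the Rab3 group, followed at 89.9 ± 3.9 (SD, n = 8). Gapvd1, a GEF for Rab5, was marked in all 4 total cell and no microglia library. Of 37 GAP genes, 12 were marked in all 8 libraries, with Tbc1d19 at 93.8 ± 3.9 and Tbc1d23 at 92.5 ± 6.2 (SD, n = 8). Tbc1d2 and Tbc1d15, the second of which acts on Rab7, were marked in microglia only. Of 40 effector genes, 9 were marked in all 8 libraries, among them Rilpl1, which binds LRRK2-modified Rab8a and Rab10 in human cells, at 84.1 ± 17, and Vps41, part of the HOPS tethering complex, at 82.6 ± 12 (SD, n = 8). Over the 117 genes, 3 were specific to microglia (2.56%, against 1.5% of all genes) and 1 to total cells (0.855%, against 0.649%).

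Genotype patterns among these genes are given beside the shares of all genes. In microglia, Bicd2, Myo5a, Sgsm2, Tbc1d1 and Tbc1d7 were marked in both 5XFAD and neither WT library (4.27%, against 3.19% of all genes), and Rph3al had the opposite pattern (0.855%, against 0.58% of all genes). In total cells, Dennd2d, Dennd4a and Rab3gap2, a subunit of the GAP of Rab3, were marked in both 5XFAD and neither WT library (2.56%, against 3.11% of all genes). Sgsm2 and Tbc1d22a had the opposite pattern (1.71%, against 1.64% of all genes).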

How the data were processed

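Per the submitters' processing notes, the reads were handled with fastp (0.19.6), Bowtie2 and deepTools on GRCm38 (mm10). Which program called peaks, at what threshold and against what control is not given in the sources used here. For each library the authors deposited 1 headerless peak list with a whole-number score per peak, of which the unit is not stated and the lowest value is 20 in each list. Scores served only to rank peaks within a list. Starts were taken as 0-based and are given 1-based. Genes and their coordinates came from the RefSeq table of GRCm38.p6, and strand and promoters from its promoter table, which holds 48 of the 59 Rab genes.

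Overlap counting was checked on simulated intervals against a direct search. A one-group call needed a peak in all libraries of a group and in none of its counterpart. Members, roles and lists were chosen with earlier results of these data known. Genes described beyond the overall counts were those with a one-group call, those in all, all but 1 or no libraries (the 8 with the highest mean percentile by value), the one-group genes and up to 3 highest of each regulator list, and relatives of these. Rab3a, Rab3b, Rab7, Rab8b, Rab11a, Rab11b, Rab29, Rab36 and the promoters of Rab17 and Rab31 were chosen after their values were seen. The libraries of a group share replicate numbers with other groups, but the labels do not pair them. No 2 lists shared more than 193 intervals. Analyses used Python 3.11.15, NumPy 2.4.6 and pandas 2.3.3.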

Additional observations from a re-analysis of the deposited data

Results flagged for a closer look

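In total cells, the best peak of Rab32 stood at percentile 69.3 in 5XFAD 2, while the other 3 libraries lay between 85.6 and 88.4. The gap to the nearest of them is 0.85 of the whole range, above Dixon's 95% critical value for 4 samples. This was 1 of 24 groups of 4 examined, and chance flags about 1 in 20.

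Sgsm2, a GAP gene, was marked in both 5XFAD and neither WT library of microglia and in neither 5XFAD and both WT libraries of total cells. The difference of the differences is 4 libraries, and it was not tested. Opposite patterns of this kind occurred at 22 of 21887 genes and at 0 of the 59 Rab genes.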

How the results depend on the processing

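Of 63 values under 7 other settings (leaving out a library and the replicate block apart), 43 stayed within 1.5 times the reported count or within the spread between libraries, and 20 did not. For the 31 genes whose windows overlap no other, counts were compared with counts among all 59. A lower count in that setting is therefore not by itself a lower share. The count of Rab genes marked in all 8 libraries was 10 with the higher-scoring 50% of peaks (9.01% of all genes) and 11 among the 31 genes whose windows overlap no other (35.5%, against 12.8% of all such genes). Marked in no library were 5 genes with windows of 5 kb (35.0% of all genes) and 5 over gene bodies (34.0%). With the higher-scoring 50% of peaks they were 15 (53.5% of all genes). Microglia-specific genes numbered 1 over gene bodies (1.20% of all genes). Genes specific to total cells numbered 1 with windows of 1 kb (0.608% of all genes) and 1 over gene bodies (0.982%). They numbered 1 with equal numbers of peaks (1.14% of all genes) and 2 with the higher-scoring 50% (0.918%). The 5XFAD pattern in microglia held for 2 genes over gene bodies (2.81% of all genes). It held for 2 of the 31 genes whose windows overlap no other (2.42% of all such genes). The WT pattern held for 1 with equal numbers of peaks (1.78% of all genes). With the higher-scoring 50% of peaks the 5XFAD microglia count was again 4 (3.53% of all genes), but Rab14 was the 1 gene shared with the reported 4. In total cells the 5XFAD pattern held for 1 gene with windows of 5 kb (3.35% of all genes) and 2 with the higher-scoring 50% (2.77%). It held for 3 of the 31 genes whose windows overlap no other (2.38% of all such genes). The WT pattern held for 2 with 5 kb windows (1.60% of all genes), 2 over gene bodies (1.60%) and 2 with the higher-scoring 50% (1.40%). The excess of the Rab share over the share of all genes was 1.91 points greater in microglia than in total cells, less than the spread of 3.05 points between libraries, and was -4.11 among genes whose windows overlap no other. Some settings leave smaller numbers of genes or peaks. The cause of these shifts was not tested.

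Leaving out 1 library at a time gave 20 to 23 Rab genes marked in all remaining libraries (17.7% to 19.7% of all genes). Marked in none were 9 to 10 (41.2% to 42.8% of all genes). Specific to microglia were 0 to 1 (1.53% to 2.73% of all genes) and to total cells 0 to 1 (0.681% to 1.06%). In microglia, 4 to 7 had the 5XFAD pattern (3.19% to 10.1% of all genes) and 0 to 3 the WT pattern (0.58% to 2.61%). In total cells, 6 to 10 had the 5XFAD pattern (3.11% to 7.37% of all genes) and 1 to 6 the WT pattern (1.64% to 4.75%). The excess was 0.369 to 3.22 points. With a replicate block, in which same-numbered libraries were compared pair by pair, the counts were by construction the same, 0 and 0 between preparations, 4 and 0 in microglia and 6 and 1 in total cells. Deviations of same-numbered libraries correlated at 0.117 between genotypes in microglia and 0.0137 in total cells across 21887 genes. Between microglia and total cells they correlated at -0.0498 in 5XFAD and 0.00567 in WT mice. The numbers were therefore not taken to pair libraries. Depth is unknown, so an unlisted peak sets no upper limit on the mark.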
